A study of Danio rerio with 6 samples.

Results

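Among the transcripts that were more abundant in *drl:EGFP*-positive cells of early zebrafish embryos were 70 transcript clusters that carry no gene name in the deposited tables but do have a position on the Zv9 genome assembly. They are the clusters with a mean log2 signal of at least 6 on the EGFP-positive arrays and at least 1 log2 unit, a ratio of 2, above the mean of the EGFP-negative arrays, taken from 22034 unnamed clusters with a position among 75212 clusters in all. Clusters with the same 6 values were counted once, which leaves 21911 distinct unnamed clusters, of which the 70 are 0.319%. The clusters were thus selected on their mean signals and on the difference between the fractions, so these values are given as a description and carry no test.

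The arrays compared cells sorted from homozygous *drl:EGFP* transgenic zebrafish at the 2 somite stage, in which a regulatory fragment of *draculin* (*drl*) drives the enhanced green fluorescent protein (EGFP). Fish of 1 family were mass-mated on 3 occasions, and pooled whole embryos were dissociated and sorted, with propidium iodide to leave out dead cells, into EGFP-positive and EGFP-negative cells, so that the EGFP-negative cells carry the same transgene and differ in not fluorescing. Each fraction was hybridised to 3 one-colour Affymetrix ZebGene arrays. The question behind the comparison was which transcripts the *drl*-expressing cells of the lateral plate contain.

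The lateral plate mesoderm is the outer band of mesoderm that gives rise to blood, vessels, heart, kidney and fin mesenchyme. A transcript cluster is the group of short probes that an array design assigns to 1 stretch of the genome on 1 strand, and it stays without a name where the design had only a predicted transcript, a cDNA fragment or an unannotated stretch to build on. Such a stretch can belong to a separate transcript, to a part of a neighbouring gene that the gene model of the time did not hold, or to transcription from the other strand. The tables give a start and an end for each cluster and no exons, so whether a cluster is exonic, intronic or part of an untranslated region cannot be read from them.

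The labels of the fractions were checked on genes known for the tissue. *drl* itself averaged 9.93 in EGFP-positive cells and 6.29 in EGFP-negative cells (limma adjusted p = 0.000436), and the haemangioblast and heart regulators *tal1* (8.80 in EGFP-positive, 4.95 in EGFP-negative cells) and *tbx20* (9.16 in EGFP-positive, 5.07 in EGFP-negative cells) were higher as well (adjusted p = 0.00556 and 0.000364). Of 31 measured lateral plate markers 23 were higher and 2 lower at an adjusted p under 0.09, with summed linear signals of 23423 to 29327 on the EGFP-positive and 9271 to 9729 on the EGFP-negative arrays. Markers of endoderm and hatching gland also were higher, 12 of 14, with sums of 17597 to 19238 on the EGFP-positive and 4668 to 5837 on the EGFP-negative arrays. *gata5* is on both of these lists, so their counts and sums share a gene. Of all named clusters on chromosomes 4.00% were higher. Of 17 neural plate and ectoderm markers 13 were lower, *sox3* among them (7.24 in EGFP-positive, 8.52 in EGFP-negative cells, adjusted p = 0.00285), with sums of 5005 to 6834 on the EGFP-positive and 16351 to 18905 on the EGFP-negative arrays. Of 12 markers of paraxial and axial mesoderm 2 were higher and 4 lower, with sums of 9961 to 10915 on the EGFP-positive and 10967 to 12903 on the EGFP-negative arrays. The share of all named clusters that were lower is not given here, so the counts of lower markers stand without it. In bulk RNA of sorted cells, fewer cells of a type and less RNA per cell cannot be told apart. The array scale has no true zero, and the part that endoderm or hatching gland cells have in the clusters below was not tested.

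The ratios of the 70 clusters ran from 2.0 to 24.1 with a median of 2.63, which is 1.39 on the log2 scale. A difference of at least 2 log2 units was reached by 18 clusters, 14 lay from 1.5 to 2, and 38 lay under 1.5. The mean signal of a cluster was 6.05 to 11.65 on the EGFP-positive arrays and 3.60 to 10.59 on the EGFP-negative arrays, with medians of 7.94 on EGFP-positive and 6.34 on EGFP-negative arrays. In 41 clusters the EGFP-negative mean was itself at least 6, and in 9 it was under 5, below the array medians of 5.02 to 5.10. All 70 had every EGFP-positive array above every EGFP-negative array, a pattern that 8.05% of the 22034 unnamed clusters show and from which nothing is read here, since the difference was used to choose them. The limits fell within a continuous range of values. The clusters just inside the limit on the difference lay at 1.001, 1.004 and 1.005 and those just outside at 0.994, 0.991 and 0.987, whereas the EGFP-positive means just inside the limit on the level were 6.049, 6.052 and 6.115 and those just outside 5.997, 5.960 and 5.930. A further 24 unnamed clusters differed by at least 1 but had an EGFP-positive mean under 6.

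**Figure D1:**
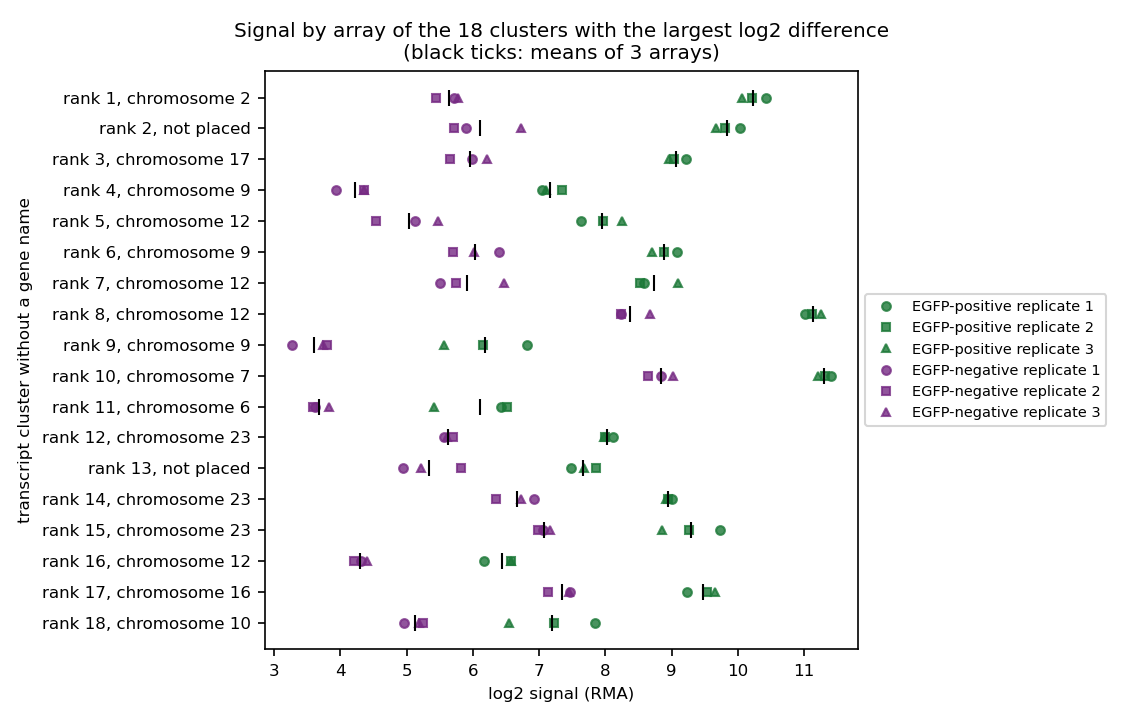
Log2 signal on each of the 6 arrays (x axis) for the 18 unnamed clusters with the largest difference (y axis, by rank and chromosome), with EGFP-positive arrays in green, EGFP-negative arrays in purple and black ticks for the means of 3 arrays. In each of the 18 the 3 EGFP-positive arrays lie to the right of all 3 EGFP-negative arrays, with mean differences from 4.59 at rank 1 to 2.08 at rank 18.

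The arrays of a fraction did not contribute equally. The highest value was on EGFP-positive array 1 in 39 of the 70 clusters (55.7%), on array 2 in 21 (30.0%) and on array 3 in 10 (14.3%), whereas over all unnamed clusters with an EGFP-positive mean of at least 6 these shares were 33.0%, 37.0% and 30.0%. The median SD over 3 arrays was 0.20 in EGFP-positive cells and 0.22 in EGFP-negative cells for the 70 clusters, against 0.12 in EGFP-positive cells and 0.15 in EGFP-negative cells for all unnamed clusters of that level. When the same rule was applied to the arrays of 2 replicate numbers and the difference was read on the arrays of the number left out, the median difference was 1.24 for 67 clusters read on replicate 1, 1.40 for 73 read on replicate 2 and 1.04 for 96 read on replicate 3. All 67 lay above 0 on replicate 1, as did 72 of 73 on replicate 2, where the exception stood at -2.14, and 90 of 96 on replicate 3. Over all unnamed clusters of that level the shares above 0 on the same arrays were 59.5%, 53.3% and 41.2%. A difference of at least 1 was kept by 45, 54 and 49 of the chosen clusters. The shares of all unnamed clusters of that level were 3.18%, 2.31% and 1.57%. Without any 1 array, 46 of the 70 clusters still met both limits.

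**Figure D2:**
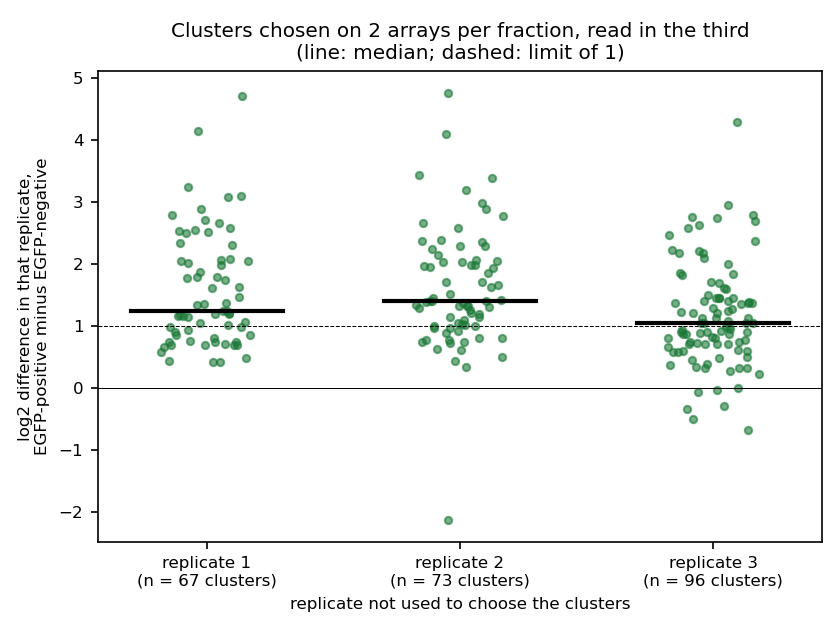
Log2 difference, EGFP-positive minus EGFP-negative (y axis), on the arrays of the replicate number that was not used to choose the clusters (x axis), with 1 point per cluster, a bar at the median and a dashed line at the limit of 1. The medians are 1.24, 1.40 and 1.04, and the lowest points are 0.41, -2.14 and -0.69.

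Of the 70 clusters 57 lay on 23 of the chromosomes, at 51 loci when clusters up to 10 kb apart are joined. The other 13 lay on sequence that Zv9 had not assigned to a chromosome and were not set against neighbouring genes. Chromosome 23 held 7, chromosome 9 held 6 and chromosome 12 held 5, and the remaining chromosomes held up to 3 each. The plus strand carried 28 and the minus strand 29. The median span was 806 bp, with quartiles of 570 and 1789 bp, and 5 clusters (8.77%) spanned over 10 kb, against 9.34% of the 2035 unnamed clusters on chromosomes with an EGFP-positive mean of at least 6. They were read by 2 to 27 probes, with a median of 19.

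By position relative to named clusters, the commonest place was just downstream of a named gene on the same strand. This held for 23 of the 57 (40.4%), at 54 to 3441 bp from the end of the gene's cluster with a median of 1492 bp, and 15 of them lay within 2 kb. Overlap with a named cluster on the same strand was found for 5 (8.77%) and overlap on the opposite strand only for 9 (15.8%). Upstream of a named gene within 5 kb lay 1 cluster, and 3 were within 5 kb of a gene on the opposite strand only. Each cluster was given 1 place, with overlap taken before distance and, without overlap, the nearer gene on the same strand taken first. The 1 upstream cluster therefore also lies downstream of a gene on its strand, 3187 bp behind *ccdc85ca*. A distance of 5 to 50 kb separated 14 (24.6%) from the nearest named cluster, and 2 were farther than 50 kb. Among the 2035 unnamed clusters of the same level, 23.5% lay downstream on the same strand, 5.36% overlapped on the same strand and 24.8% on the opposite strand only. A place 5 to 50 kb away was held by 25.4% of these 2035. Their 479 downstream clusters lay at a similar median distance of 1459 bp, with 302 of them within 2 kb. Of the clusters within 5 kb of a named cluster without overlap, 23 of 27 (85.2%) were in the downstream position, against 479 of 740 (64.7%) of the unnamed clusters of that level. The mirror set of 34 unnamed clusters on chromosomes that were at least 1 log2 unit lower, with an EGFP-negative mean of at least 6, had 13 (38.2%) downstream on the same strand. These differences in position were not tested.

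**Figure D3:**
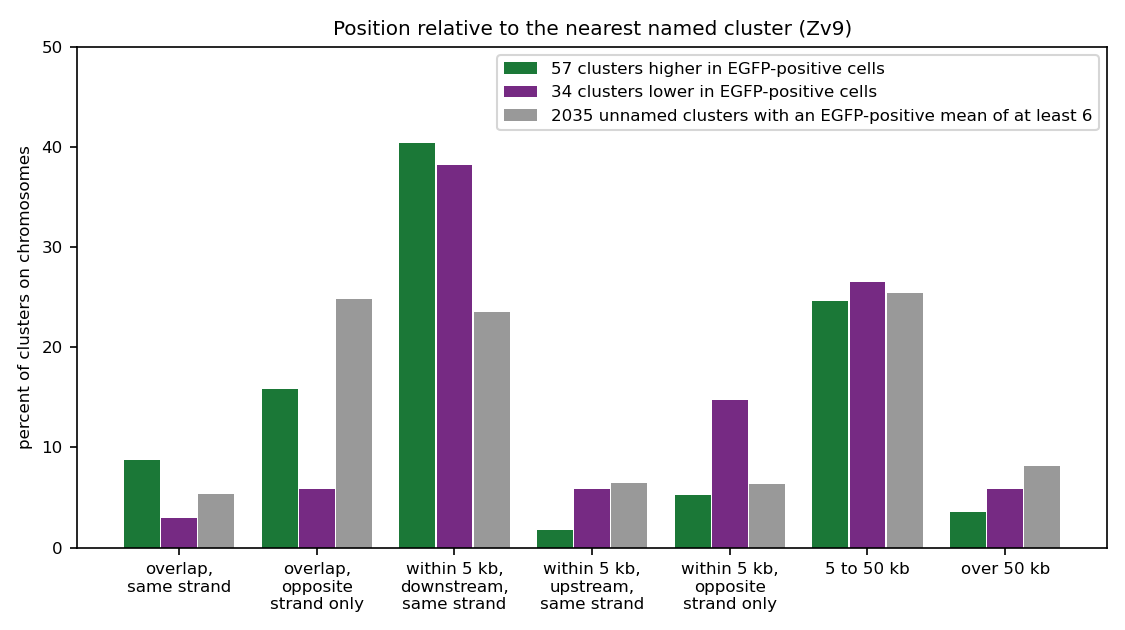
Percent of unnamed clusters (y axis) in each position relative to the nearest named cluster (x axis), for the 57 clusters higher in EGFP-positive cells (green), the 34 clusters lower in EGFP-positive cells (purple) and all 2035 unnamed clusters with an EGFP-positive mean of at least 6 (grey). Downstream on the same strand are 40.4%, 38.2% and 23.5% of them.

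The largest difference of all was at chr2:14478533-14480583 on the minus strand, a cluster read by 10 probes that the tables tie to an Ensembl transcript identifier with no name. Its signal was 10.43, 10.21 and 10.07 on the EGFP-positive arrays and 5.71, 5.45 and 5.77 on the EGFP-negative arrays, a log2 difference of 4.59 or a ratio of 24.1. The fractions stand far apart, with over 4 log2 units between the lowest EGFP-positive and the highest EGFP-negative array. No named gene lies within 5 kb. The nearest, *LOC100331996*, starts 5425 bp away on the opposite strand and averaged 6.28 in EGFP-positive cells and 6.53 in EGFP-negative cells (difference -0.24, adjusted p = 0.571). On the same strand *LOC100534811* follows 46197 bp away, with a difference of 0.17 (adjusted p = 0.534).

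At chr17:17859037-17859535 on the plus strand a cluster of 499 bp lay between a pair of named genes on its own strand. It read 9.22, 9.04 and 8.96 on the EGFP-positive arrays and 5.98, 5.66 and 6.22 on the EGFP-negative arrays, a difference of 3.12. The 2 genes at its sides differed in what they did. *ccdc85ca*, which ends 3187 bp before it, averaged 9.55 ± 0.21 in EGFP-positive cells and 6.27 ± 0.82 in EGFP-negative cells (SD, n = 3 each, difference 3.28, adjusted p = 0.00508). *setd3*, the actin histidine methyltransferase gene that starts 2517 bp after it, averaged 6.66 ± 0.17 in EGFP-positive cells and 6.76 ± 0.14 in EGFP-negative cells (SD, n = 3 each, difference -0.10, adjusted p = 0.776).

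A locus of 3 clusters on chromosome 9 had no named neighbour past the test on either side. The cluster at chr9:16684896-16685909 on the minus strand read 7.04, 7.35 and 7.11 on the EGFP-positive arrays and 3.94, 4.36 and 4.35 on the EGFP-negative arrays, a difference of 2.95. On the same strand, chr9:16679615-16680402 read 7.85, 7.77 and 7.76 in EGFP-positive cells and 5.84, 6.15 and 5.67 in EGFP-negative cells, a difference of 1.91. The third, chr9:16687549-16687957 on the plus strand, read 7.59, 8.22 and 7.53 in EGFP-positive cells and 6.69, 6.81 and 6.14 in EGFP-negative cells, a difference of 1.23. In each of the 3 the fractions are apart, as in all 70 clusters, and most widely in the first. All 3 are tied to Ensembl transcript identifiers without a name, and the nearest named cluster, *LOC100151298* (now *si:dkey-14o1.20*), averaged 2.60 in EGFP-positive cells and 2.64 in EGFP-negative cells (adjusted p = 0.912). *crfb4*, a cytokine receptor gene 27796 bp from the nearest of them on the other side, had a difference of 0.08 (adjusted p = 0.817). The means of both genes lie below the array medians of 5.02 to 5.10 in both fractions, with 4.57 and 4.48 for *crfb4* in EGFP-positive and EGFP-negative cells.

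Both strands of 1 stretch on chromosome 12 were among the clusters. At chr12:18827824-18828393 the plus-strand cluster read 11.02, 11.12 and 11.26 on the EGFP-positive arrays and 8.24, 8.24 and 8.67 on the EGFP-negative arrays, a difference of 2.75. The minus-strand cluster with the same start and end read 7.64, 7.97 and 8.25 in EGFP-positive cells and 5.12, 4.54 and 5.47 in EGFP-negative cells, a difference of 2.92. Both thus differed by a similar amount, and in both the third EGFP-positive array was the highest. The plus-strand gene before the stretch is *bhlha15*, a basic helix-loop-helix factor known in mouse for secretory cells, which ends 3441 bp away and averaged 9.54 ± 0.18 in EGFP-positive cells and 7.24 ± 0.20 in EGFP-negative cells (SD, n = 3 each, difference 2.30, adjusted p = 0.000388). On the minus strand the gene before it is *tecpr1a*, whose product is linked to autophagy in mammals, 1104 bp away and lower in EGFP-positive cells (4.71 ± 0.12, against 5.23 ± 0.05 in EGFP-negative cells, adjusted p = 0.0301). The minus-strand cluster and *tecpr1a* therefore moved in opposite directions, although both *tecpr1a* means lie near the array medians of 5.02 to 5.10. Whether 1 transcript can give signal to the probes of both strands in this labelling was not tested.

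Within *myo10*, the gene of an unconventional myosin found at the tips of filopodia, 2 clusters lay on the strand opposite to the gene. At chr9:12943825-12944424 the signal was 9.09, 8.89 and 8.70 in EGFP-positive cells and 6.39, 5.70 and 6.01 in EGFP-negative cells, a difference of 2.86. At chr9:12947014-12947436 it was 6.82, 6.15 and 5.57 in EGFP-positive cells and 3.27, 3.80 and 3.73 in EGFP-negative cells, a difference of 2.58. The second is the more variable of the pair, with an SD of 0.62 on the EGFP-positive arrays. *myo10* averaged 9.03 ± 0.22 in EGFP-positive cells and 7.86 ± 0.09 in EGFP-negative cells (SD, n = 3 each, difference 1.18, adjusted p = 0.00414). The next plus-strand gene before the pair, *sumo3b*, had a difference of 0.26 (adjusted p = 0.274).

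The cluster with the longest span ran over 2 clusters of a cathepsin L gene and several genes with provisional names, at chr12:17583551-18018786 on the plus strand, 435236 bp covered by only 10 probes. It read 8.58, 8.53 and 9.10 on the EGFP-positive arrays and 5.50, 5.75 and 6.47 on the EGFP-negative arrays, a difference of 2.83. Of the named clusters under it, *wu:fb37b09* had a difference of 3.75 (adjusted p = 0.00131), *MGC174857* of 2.97 (adjusted p = 0.000175), and the 2 clusters of *ctsl1b* (now *ctslb*), the cathepsin L gene known from the hatching gland, of 2.46 and 1.71 (adjusted p = 0.000218 and 0.000696). *zgc:174153*, which lies on the same strand, differed by 2.34 (adjusted p = 0.00228), and *LOC100536080* (now *htr7*) by 0.08 (adjusted p = 0.789). A gene listed at 2 places of the span can have near copies whose probes share targets, and the origin of the signal of this cluster is uncertain. *ctslb* is also on the list of endoderm and hatching gland markers, of which 12 of 14 were higher.

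Clusters just downstream of a named gene were mostly found behind genes that were themselves higher in EGFP-positive cells. Of the 23 genes on their 5′ side 20 were higher (87.0%) and 1 was lower by limma at an adjusted p under 0.09, with a median difference of 1.16 and a range from -0.52 to 3.22. The share called higher was 9.40% among the 436 genes in the same position to all unnamed clusters with an EGFP-positive mean of at least 6. The differences of these 436 genes had a median of 0.09. Among 29861 named clusters on chromosomes the share was 4.00%. Both members of a pair were measured on the same 6 arrays and in the contrast that chose the clusters, so this count is no independent result. The difference of the cluster and that of its gene correlated with a Pearson's r of 0.42 over these 23 pairs. Over the 479 pairs of all unnamed clusters with an EGFP-positive mean of at least 6 it was 0.79. Both describe pairs that share arrays and neighbouring sequence. The 23 are part of the 479 and were cut off at a cluster difference of 1. They include the *tecpr1a* pair, with -0.525 for the gene and 2.916 for the cluster. The coefficients therefore cannot be compared. In the mirror set the 13 genes on the 5′ side had a median difference of -1.35. That set was chosen in the same contrast, so this value is no independent result either. Whether a cluster and the gene before it are parts of the same transcript was not tested.

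**Figure D4:**
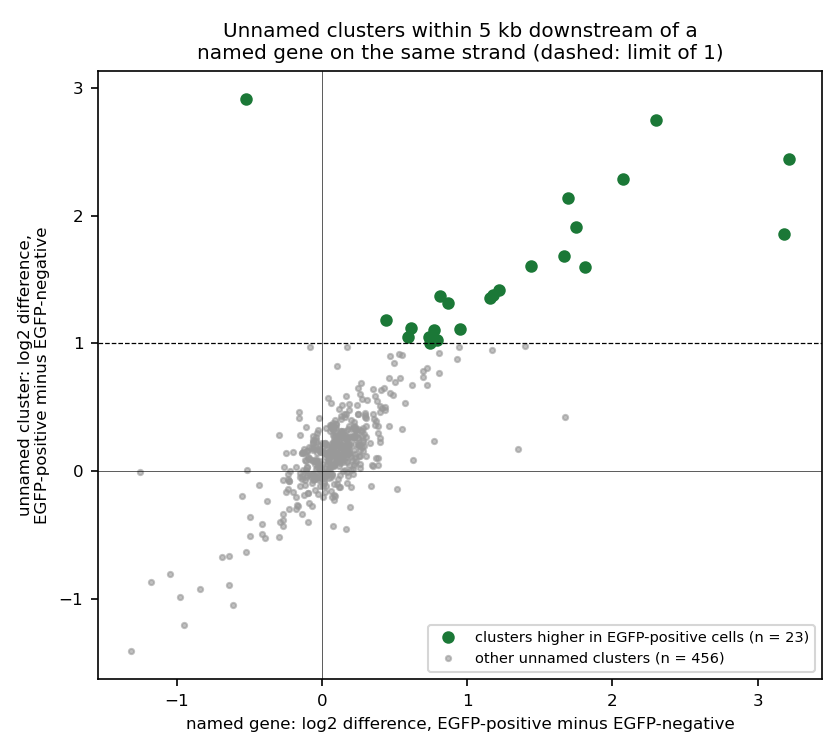
Log2 difference, EGFP-positive minus EGFP-negative, of unnamed clusters that lie within 5 kb downstream of a named gene on the same strand (y axis), against that of the gene (x axis), with the 23 clusters chosen here in green and 456 other unnamed clusters with an EGFP-positive mean of at least 6 in grey. All green points lie above the dashed limit of 1 because the limit chose them, and 1 of them, the cluster behind *tecpr1a*, lies left of 0.

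The largest gene difference in this position was that of *pltp*, which encodes a phospholipid transfer protein. The cluster chr6:55576478-55577115 on the minus strand, 2676 bp behind it, read 6.42, 6.51 and 5.41 in EGFP-positive cells and 3.61, 3.58 and 3.82 in EGFP-negative cells, a difference of 2.44. *pltp* averaged 10.76 ± 0.24 in EGFP-positive cells and 7.54 ± 0.05 in EGFP-negative cells (SD, n = 3 each, difference 3.22, adjusted p = 0.000175). The third EGFP-positive array was the lowest of its fraction in both, and whether cluster and gene are linked was not tested.

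At the start of chromosome 23 a pair of neighbouring genes on opposite strands had unnamed clusters behind them, 3 in all. The cluster chr23:2517169-2519332 on the minus strand lies 936 bp behind *snai1b*, a Snail zinc-finger repressor of epithelial genes, and read 9.0, 8.94 and 8.92 in EGFP-positive cells and 6.93, 6.35 and 6.72 in EGFP-negative cells, a difference of 2.28. *snai1b* itself averaged 10.67 ± 0.11 in EGFP-positive cells and 8.60 ± 0.26 in EGFP-negative cells (SD, n = 3 each, difference 2.07, adjusted p = 0.000687). The cluster and the gene differed by similar amounts. On the plus strand, chr23:2566101-2566410 read 8.11, 7.99 and 7.98 in EGFP-positive cells and 5.56, 5.70 and 5.61 in EGFP-negative cells, a difference of 2.40, with an SD of 0.07 in each fraction. Nearer to the same gene, chr23:2563561-2563824 read 6.49, 6.53 and 6.40 in EGFP-positive cells and 5.11, 4.30 and 4.95 in EGFP-negative cells, a difference of 1.69. They lie 5116 and 2576 bp behind *LOC569441* (now *tp53inp2b*), which is related to a mammalian autophagy gene and had a difference of 1.67 (adjusted p = 0.0011).

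Farther along chromosome 23, 2 clusters on the minus strand lay in a stretch with few named genes. At chr23:33151274-33158296 the signal was 9.73, 9.27 and 8.86 in EGFP-positive cells and 7.06, 6.99 and 7.17 in EGFP-negative cells, a difference of 2.21. At chr23:33146004-33146702 it was 7.13, 6.56 and 5.68 in EGFP-positive cells and 4.78, 5.19 and 4.74 in EGFP-negative cells, a difference of 1.55. In both, EGFP-positive array 1 was the highest and array 3 the lowest of the fraction. The nearest named cluster, *si:dkey-164k14.1*, follows on the same strand 39320 bp from the second, and had the same order of EGFP-positive arrays. It read 7.56, 6.70 and 6.44 in EGFP-positive cells against 5.57, 5.63 and 5.81 in EGFP-negative cells (difference 1.23, adjusted p = 0.0683). EGFP-positive array 1 was, however, the highest in 55.7% of all clusters that met both limits. Whether the 2 clusters and *si:dkey-164k14.1* are linked was not tested.

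Besides the long span over *ctslb*, 1 cluster lay within 5 kb of a gene on the marker lists. It was chr15:27051295-27051718 on the minus strand, 134 bp behind *lhx1a*, the LIM homeodomain factor of the early kidney field. The cluster read 7.02, 6.73 and 6.38 in EGFP-positive cells and 4.97, 5.35 and 5.02 in EGFP-negative cells, a difference of 1.60. *lhx1a* averaged 8.99 ± 0.25 in EGFP-positive cells and 7.18 ± 0.11 in EGFP-negative cells (SD, n = 3 each, difference 1.81, adjusted p = 0.00101). A second *lhx1a* cluster on the plus strand had a difference of 0.33 (adjusted p = 0.304).

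The following genes with a cluster behind them were named after their values were seen. *nrp1b*, a receptor for semaphorins and vascular growth factor, had a difference of 3.18 (adjusted p = 0.000364), and chr2:43635133-43636813 behind it had 1.85. Of the values of that cluster, 6.66, 6.03 and 5.46 in EGFP-positive cells and 4.21, 3.96 and 4.42 in EGFP-negative cells, the EGFP-positive ones spread over more than 1 log2 unit. *ptger4b*, a prostaglandin E2 receptor gene, differed by 1.75 (adjusted p = 0.000899) and chr5:37022541-37022990 by 1.91. The values for *LOC100002938* (now *cdc42ep4b*), a Cdc42 effector gene, and chr12:38945614-38946467 were 1.70 and 2.14. Those for *chst3a*, a chondroitin sulphotransferase gene, and chr13:29746054-29746859 were 1.22 and 1.42. In each of these pairs the gene passed the test, and cluster and gene were higher together. The same held for the clusters 54 bp behind *LOC100001725* (now *emilin2a*), 71 bp behind the amino acid transporter gene *slc7a1* and 405 bp behind the arrestin gene *arrb2b*, with cluster differences of 1.11, 1.00 and 1.05 and gene differences of 0.95, 0.75 and 0.74. The genes that did not pass were *si:dkey-40c11.1* (now *rtkna*), with 0.44 (adjusted p = 0.138), and *si:dkey-222b8.1* (now *smad10a*), with 0.62 (adjusted p = 0.17), whose clusters differed by 1.18 and 1.12.

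The cluster behind *mtx1b*, a gene of mitochondrial protein import, stood between genes of unlike size of difference. At chr19:24933107-24933805 on the minus strand it differed by 1.1, with 9.28, 9.14 and 8.86 in EGFP-positive cells and 8.52, 7.86 and 7.59 in EGFP-negative cells. *mtx1b*, 444 bp before it, differed by 0.77 (adjusted p = 0.0432) and the thrombospondin gene *thbs3b*, 3857 bp after it, by 2.82 (adjusted p = 0.000716). This cluster was also named after its values were seen.

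The 5 clusters that overlapped a named cluster on their own strand did not all have a host gene that was higher. At chr10:11727276-11730335, which overlaps the 5′ end of the span of the metalloprotease gene *adamts6*, the signal was 7.85, 7.22 and 6.55 in EGFP-positive cells and 4.96, 5.24 and 5.19 in EGFP-negative cells, a difference of 2.08. *adamts6* read 7.40, 7.10 and 6.63 in EGFP-positive cells and 5.83, 5.76 and 5.83 in EGFP-negative cells, a difference of 1.24 (adjusted p = 0.0149). By contrast, chr22:23620085-23620420 lies inside the span of *uchl5*, a gene of a proteasome-bound deubiquitinase, and read 9.13, 8.91 and 8.66 in EGFP-positive cells and 6.83, 6.87 and 7.17 in EGFP-negative cells, a difference of 1.94. *uchl5* had a difference of 0.25 (adjusted p = 0.368).

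Of the 10 named clusters that were overlapped from the opposite strand alone by 9 of the unnamed clusters, 3 were higher: those of *myo10*, of the cadherin gene *cdh11* and of *arhgap28*. The share called higher among all named clusters on chromosomes was 4.00%. As the contrast is the one that chose the unnamed clusters, this count is no independent result. The cluster opposite *cdh11*, chr7:44760561-44814030, read 8.26, 7.86 and 8.15 in EGFP-positive cells and 6.64, 6.77 and 6.71 in EGFP-negative cells, a difference of 1.39, and *cdh11* had 2.05 (adjusted p = 0.000246). *arhgap28* and *cdh11* each also have a named cluster on the strand of the unnamed one, on its 5′ side. That of *arhgap28* lies 1363 bp away and differed by 1.05 (adjusted p = 0.00437). That of *cdh11* lies 26585 bp away and differed by 1.82 (adjusted p = 0.00102). The span chr16:17909662-18223273 takes in 313612 bp with 22 probes and had 9.24, 9.53 and 9.66 in EGFP-positive cells and 7.47, 7.14 and 7.45 in EGFP-negative cells, a difference of 2.13. The 3 named genes opposite to it did not pass the test, *ankib1* with a difference of 0.18 (adjusted p = 0.44), *fabp11b* with -0.08 (adjusted p = 0.787) and *stmn2a* with -0.18 (adjusted p = 0.502). The labelled strand of a probe is taken from the tables, and how far a target from the other strand adds to it was not tested.

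Near a gene on the opposite strand only, the largest difference was at chr22:4040923-4041391, 1640 bp from the end of the fibrillin gene *fbn2b*. It read 9.05, 9.46 and 9.10 in EGFP-positive cells and 7.69, 7.48 and 7.28 in EGFP-negative cells, a difference of 1.72. *fbn2b* averaged 10.61 ± 0.22 in EGFP-positive cells and 9.35 ± 0.09 in EGFP-negative cells (SD, n = 3 each, difference 1.26, adjusted p = 0.00303). Both had the fractions apart, as did all 70 clusters.

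On chromosome 3 a cluster, named after its values were seen, lay between a gene of the kank family and the embryonic globin genes. At chr3:56006606-56007336 on the minus strand it read 7.47, 6.69 and 7.22 in EGFP-positive cells and 5.42, 4.98 and 5.21 in EGFP-negative cells, a difference of 1.92. *LOC571549* (now *kank2*), 5963 bp before it, differed by 1.74 (adjusted p = 0.00108), and *hbae3*, a globin gene 7190 bp after it, by 0.62 (adjusted p = 0.23). A second globin gene, *si:busm1-118j2.5* (now *hbbe1.1*), lies 22657 bp away on the opposite strand and had 1.19 (adjusted p = 0.011). On the 3 EGFP-positive arrays *hbae3* read 7.30, 6.46 and 7.11, and *kank2* read 9.13, 9.11 and 9.01. Whether the cluster belongs with any of these genes was not tested.

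Over all 57 placed clusters, the 60 named clusters that overlapped them or were nearest to them included 37 that were higher (61.7%) and 2 that were lower. Of all named clusters on chromosomes 4.00% were higher. The median difference was 0.80 against 0.00 for all named clusters on chromosomes. Several of the 60, most of them higher, lie under the 1 long span over *ctslb*. Neighbours were measured in the contrast that chose the clusters, so counts of higher neighbours are no independent result. A named cluster that was higher lay within 50 kb of 39 of the 57 (68.4%), against 13.2% of the 2035 unnamed clusters of the same level. The other 18 had none, and 4 of them differed by at least 2 log2 units, at chr2:14478533-14480583, chr9:16684896-16685909, chr7:23373063-23373950 and chr16:17909662-18223273. The cluster on chromosome 7 had 11.41, 11.32 and 11.21 in EGFP-positive cells and 8.84, 8.65 and 9.03 in EGFP-negative cells, a difference of 2.47 with more than 2 log2 units between the fractions. Its nearest named gene, *tmem256*, is 5013 bp away on the opposite strand and was lower in EGFP-positive cells (6.01 ± 0.08, against 6.52 ± 0.11 in EGFP-negative cells, SD, n = 3 each, adjusted p = 0.0347).

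The 2 clusters farther than 50 kb from any named cluster had smaller differences. At chr13:7297407-7298211 the signal was 6.79, 6.10 and 5.25 in EGFP-positive cells and 4.55, 4.70 and 4.54 in EGFP-negative cells, a difference of 1.45 with an SD of 0.77 on the EGFP-positive arrays. Its next gene on the strand, *wu:fb83c11*, lies 64342 bp on. That gene had 6.80, 6.56 and 6.08 in EGFP-positive cells and 4.86, 4.91 and 5.03 in EGFP-negative cells (difference 1.55, adjusted p = 0.00546). The order of the EGFP-positive arrays was the same in both. EGFP-positive array 1 was, however, the highest in 55.7% of all clusters that met both limits. Whether this cluster and *wu:fb83c11* are linked was not tested. At chr18:18514136-18515070 the signal was 9.57, 9.20 and 8.81 in EGFP-positive cells and 7.89, 8.39 and 8.05 in EGFP-negative cells, a difference of 1.09. This cluster carries an Ensembl gene identifier, which a later table of names gives as *si:ch211-223o1.5*, a provisional name without a described role. The only other cluster with such an identifier, chr23:38190045-38193197, is now *si:dkey-222e15.3* and differed by 1.05.

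Among the 13 clusters on unassigned sequence, 1 had the second largest difference of all, 3.73, with 10.04, 9.81 and 9.67 in EGFP-positive cells and 5.90, 5.71 and 6.72 in EGFP-negative cells. The third EGFP-negative array is the highest of its fraction there, and the fractions remain apart, as in all 70 clusters. Another, a cluster with a span of 4179 bp, had 7.48, 7.86 and 7.68 in EGFP-positive cells and 4.94, 5.82 and 5.22 in EGFP-negative cells, a difference of 2.34. The others had differences of 1.00 to 1.92.

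The limits were also applied to clusters with a gene name. Of 3921 distinct unnamed clusters with an EGFP-positive mean of at least 6 the 70 are 1.79%, whereas 507 of 16299 named clusters of that level (3.11%) met both limits. This difference was not tested, as clusters of 1 gene are not independent.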

How the data were processed

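The authors made the deposited log2 signals of 6 one-colour arrays, 3 EGFP-positive and 3 EGFP-negative, with MAS background correction and RMA to the gene level in Affymetrix ExpressionConsole. A second deposited table gave positions on Zv9, strands and probe counts for each cluster. It also holds the authors' own fold changes, statistics and p-values, which were not used. No further scaling was applied. There is no read depth on arrays, and precision is limited by how many there are.

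The 70 clusters, the lists of genes and the limits were chosen with earlier results of these data known. Means, SDs and differences were computed in Python 3.11.15 (pandas 2.3.3, numpy 2.4.6, figures with matplotlib 3.10.9). Differences of named clusters were tested by limma 3.58.1 (lmFit and eBayes, R 4.3.3) over all 75212 clusters, two-sided, and called at a Benjamini-Hochberg adjusted p under 0.09, the false discovery rate of the study. The methods name siggenes, which was not used here. An exact permutation test of 3 against 3 arrays cannot go below p = 0.1 and was not run. Distances ran between the ends of spans, and a named cluster was any with a symbol in the files. Clusters on unassigned sequence, which share start positions, got no neighbours, and 15910 unnamed clusters without a position were left out. Of 59 neighbour symbols 47 had a current name in a table of a later assembly, used for names only. Marker genes were found by the symbol in the files or its current name. The text names the 15 clusters with the largest difference, those within 5 kb of a marker gene, loci of 3 or more, and the 2 largest of each position class, with their neighbours; others were named after their values were seen. Alternatives were other limits, normalizations, windows and filters, a replicate block and leaving out each array. The scripts were tested on simulated data. Replicates are separate collections, and no source says whether arrays of the same number come from 1 collection. Reference sequence for Zv9 was not used here, so no sequences are given.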

Additional observations from a re-analysis of the deposited data

How the results depend on the processing

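With a log2 difference of at least 2 in place of 1, 18 of the 70 clusters remained, and with a window of 1 kb in place of overlap, 38.6% of the placed clusters met a named cluster in place of 24.6%. When 1 array was left out at a time, the number of clusters ran from 62 to 96, the share overlapping a named cluster from 20.0% to 28.3%, the named clusters overlapping or nearest that were higher from 32 to 37 (37 with all arrays), and the genes on the 5′ side of downstream clusters that were higher from 17 to 21 (20 with all arrays). The highest number of clusters, 96, came without EGFP-positive array 3. The count of 5′ genes was added after the data were seen. Quantile normalization of the deposited values again gave 59 clusters, all among the 70, and centring on the median 69. A minimum level of 5 gave 84 and of 7 gave 56. With a replicate block in limma 36 named neighbours were higher in place of 37, and 20 of the 5′ genes. Deviations of same-numbered arrays from their fraction means correlated at -0.028, 0.041 and 0.094. These values cannot tell whether arrays of the same number share a collection. The main limma fit did not treat them as pairs, whereas the replicate block and the reading on left-out arrays set arrays of the same number together. Of the 70 clusters 9 had an EGFP-negative mean under 5. With 3 arrays per fraction the SDs are themselves imprecise.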

Other observations

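Of the 15910 unnamed clusters for which the tables give no position, 30 met the same limits on level and difference, with a highest log2 difference, EGFP-positive minus EGFP-negative, of 3.22. They have no location and were set against no gene.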
